A study of Mus musculus with 27 samples.

Results

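Small RNA in the soluble nucleoplasm of mouse primary cortical neurons (mCtx) was compared with that of mouse embryonic stem cells (mESC). The comparison used the 3 nucleoplasm libraries of each cell type, 6 of the 27 libraries of the series, over all 1013 entries of the deposited small RNA table. The series fractionated mESC, a neural progenitor line and mCtx into chromatin, nucleoplasm and cytoplasm, with 3 libraries of each. The mESC were the E14 line, grown with LIF on gelatin, so they stand for 1 cell line. The mCtx were primary cortical neurons kept for 5 days on poly-L-lysine, and a primary culture can hold other cell types. Their sample names carry the code E15D5, which the labels do not explain. The labels name no treatment, and give no strain for the neurons. RNA shorter than 200 nt was depleted of rRNA in both. The libraries of a group are labelled biological replicates, but separate cultures or animals are not stated, so p-values may measure only technical variation. For single entries, the spread behind a p-value was taken over all 27 libraries in 9 groups, not only the 6 compared.

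A miRNA is a guide of about the length of the sequences printed here, cut from a hairpin precursor, and bases 2 to 8 from its 5′ end, the seed, lead its pairing with target mRNAs. Mouse embryonic stem cells are known for the miR-290 to miR-295 cluster, while miR-9, miR-124 and miR-128 are known in neurons and let-7 is known to accumulate as cells differentiate. In the nucleus, C/D box and H/ACA box snoRNAs guide the methylation and pseudouridylation of rRNA, snRNAs act in splicing and mRNA 3′ end formation, and tRNA precursors are made and trimmed.

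The values are RPM, reads per 1000000, so each is a share of its library. Fewer cells of a type and less RNA per cell cannot be told apart from them. An entry below a library's lowest listed value is given as 0, and that value lay between 5.16 and 8.42 RPM in mCtx and between 15.69 and 27.13 RPM in mESC. The size of 1 read was searched only where this value would be about 10 reads, so that number is an assumption. The size chosen made it 10 reads in 5 of the 6 libraries and 10.56 in mESC replicate 3. On that assumption mCtx had 1187430 to 1937609 reads and mESC 368594 to 637414. By the lowest listed values themselves, the mCtx libraries reached lower levels. A listed 0 is therefore not read as absence. Between replicates of a group, Pearson's r of log2 RPM across entries, which are not independent, was 0.93 to 0.991.

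A choice of miRNAs of these libraries is shown by sequence, with the seed in capitals. They are the RefSeq mature sequences of GRCm38.p6, and 366 of the 420 mature names in the table matched one. The first set is the miR-181 family, shown because its 4 members share 1 seed while 2 were higher in mCtx, 1 did not pass the test and 1 was lower.
miR-181a-5p: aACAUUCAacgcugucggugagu
miR-181b-5p: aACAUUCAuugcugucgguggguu
miR-181c-5p: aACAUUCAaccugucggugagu
miR-181d-5p: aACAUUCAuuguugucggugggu
The next 4 led the let-7, miR-9, miR-128 and miR-125 groups of mCtx.
let-7f-5p: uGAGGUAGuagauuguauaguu
miR-9-5p: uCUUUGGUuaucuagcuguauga
miR-128-3p: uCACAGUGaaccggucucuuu
miR-125b-5p: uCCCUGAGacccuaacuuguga
The last set was higher in mESC than in mCtx, and 2 seeds recur within its members of the miR-290 to miR-295 cluster. It is not a ranking, since it leaves out miR-22-3p, higher in mESC than all of these but miR-182-5p.
miR-182-5p: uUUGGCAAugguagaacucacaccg
miR-183-5p: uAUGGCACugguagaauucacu
miR-295-3p: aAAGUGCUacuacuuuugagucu
miR-294-3p: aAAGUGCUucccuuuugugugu
miR-293-5p: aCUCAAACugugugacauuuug
miR-292a-5p: aCUCAAACugggggcucuuuug
miR-92a-3p: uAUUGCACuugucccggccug

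Summed over names that share a seed, the miR-181 seed ACAUUCA took 31.5% to 41.1% of miRNA reads in mCtx and 3.04% to 3.29% in mESC. The let-7 seed GAGGUAG took 9.73% to 11.97% in mCtx and 0.261% to 0.377% in mESC. The order was opposite for the miR-182 seed UUGGCAA, with 0.176% to 0.206% in mCtx and 21.1% to 24.5% in mESC. The seeds AAGUGCU and CUCAAAC, both found in the miR-290 to miR-295 cluster, took 4.48% to 5.45% and 3.26% to 3.98% in mESC and were listed at 0 in all 3 mCtx libraries. For none of these 5 seeds did the groups overlap. Names without a RefSeq match are not in these sums, which are given as a description without a test.

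Single entries were tested with limma on log2(RPM + 1), and differences below are mCtx minus mESC on that scale. As the fit used all 27 libraries, a large SE can come from libraries outside the 6. miR-93-5p was at 1965, 2040 and 1991 RPM in mCtx and 8544, 5596 and 5077 RPM in mESC. It did not pass (difference -1.64 ± 1.71, SE, limma adjusted p = 0.451), but passed when only the 6 were fitted (limma adjusted p = 0.00127). That smaller fit also lost calls, as for miR-293-3p below. Of the 851 entries tested, 178 were higher in mCtx (20.9% of those tested) and 266 were lower (31.3%), with a median difference of -0.45. When every value was raised to the highest of the 6 lowest listed values, 27.13 RPM, 134 were higher and 294 lower, of which 116 and 231 were also called on log2(RPM + 1). Among the 178 entries called higher, 105 were listed at 0 in all 3 mESC libraries, and 47 of these averaged under 27.13 RPM in mCtx, a level that the mESC libraries do not all reach. Scaling instead on the 106 entries above 0 in all 27 libraries added about 1.17 to the differences of entries well above 0 in both groups. The shift was smaller where a group was listed at 0, from 11.51 to 11.92 for miR-21a-5p and from -14.97 to -14.20 for miR-295-3p. This scaling gave 217 higher and 197 lower, so the higher share of the calls was 52.4% in place of 40.1%. Under that scaling the 178 remained higher, 197 of the 266 remained lower and none changed direction as a call.

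**Figure D1:**
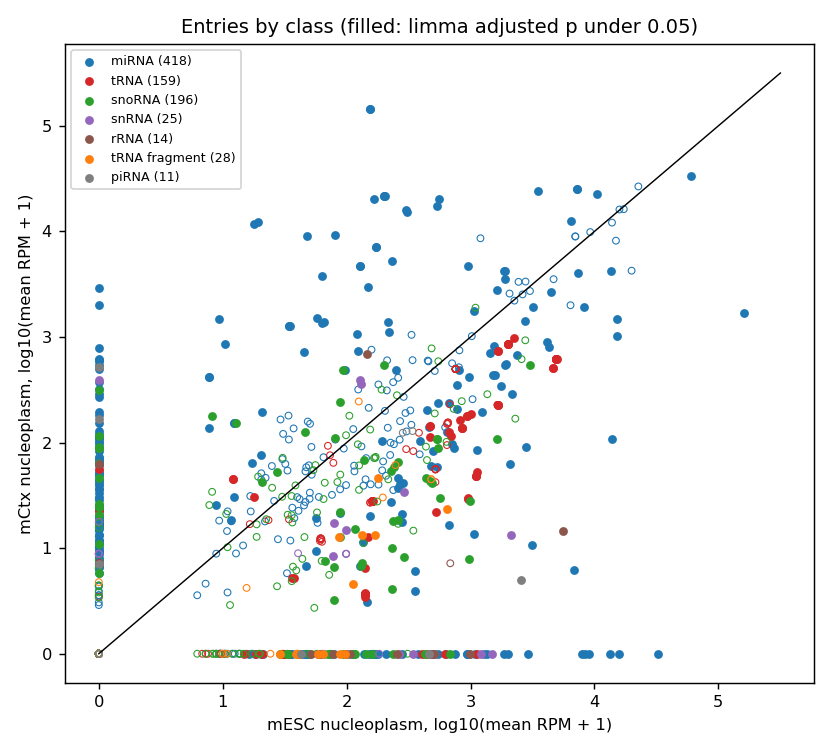
Mean level of each tested entry in mESC nucleoplasm (x axis) and mCtx nucleoplasm (y axis), both as log10(mean RPM + 1), coloured by class, with filled points for limma adjusted p under 0.05 and the line of equal levels. miRNAs lie on both sides of the line, tRNA entries lie mostly below it, and the 110 entries called lower with mCtx at 0 lie along the lower edge.

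By class, miRNA entries made up 95.8%, 95.8% and 96.2% of listed RPM in mCtx replicates 1 to 3 and 81.9%, 78.7% and 81.8% in mESC, a mean of 95.9% ± 0.215 against 80.8% ± 1.82 (SD, n = 3). tRNA entries made up 2.32% ± 0.107 in mCtx and 12.3% ± 2.96 in mESC. snoRNA entries made up 1.37% ± 0.24 and 4.11% ± 1.92, in the same order. The snRNA share was 0.139% ± 0.0214 against 0.869% ± 0.143 and the rRNA share 0.0826% ± 0.01 against 1.06% ± 0.8. The groups overlapped in none of the 7 classes. Single mESC libraries weighed on some: the snoRNA difference was -1.64 points without mESC replicate 1 in place of -2.74, and without mESC replicate 3 the rRNA difference was -0.523 in place of -0.978 and that of tRNA fragments -0.221 in place of -0.343. The exact two-sided permutation p was 0.1 in each class, the smallest that 3 against 3 libraries can give, and 0.1 after adjustment over the 7 classes. The shares of a library add up to a whole, so a higher miRNA share lowers the others. In the cytoplasm the tRNA share differed less, with means of 11.3% in mCtx and 12.97% in mESC. On chromatin it was lower in mCtx as in nucleoplasm, with means of 2.37% in mCtx and 16.0% in mESC.

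**Figure D2:**
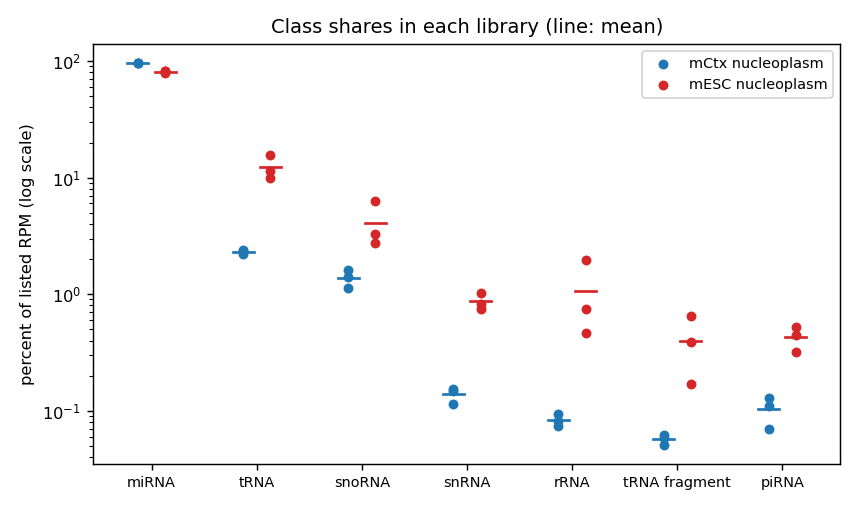
Share of listed RPM held by each class in each nucleoplasm library (points, percent on a log axis) with the group mean (line). miRNA is the only class with mCtx above mESC, and the other 6 have all 3 mCtx libraries below all 3 mESC libraries.

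The miR-181 family dominated mCtx nucleoplasm but did not move as one. miR-181a-5p, summed over its entries at chr1:137966468-137966490 and chr2:38852741-38852763, stood at 247669, 275055 and 337586 RPM in mCtx and 584, 222 and 121 RPM in mESC. It was thus the highest entry of mCtx, with a difference of 10.14 ± 1.55 (SE, limma adjusted p = 1.31e-05). miR-181b-5p, its cluster neighbour on both chromosomes, was at 18061, 16896 and 19816 RPM in mCtx and 202, 106 and 70.8 RPM in mESC, a difference of 7.30 ± 0.24 (SE, limma adjusted p = 2.18e-16). The other cluster, within the gene Nanos3 on chromosome 8, did not share this rise. miR-181c-5p stood at 16535, 16888 and 15330 RPM in mCtx and 19380, 15839 and 16464 RPM in mESC, which overlap, with a difference of -0.08 ± 0.20 (SE, limma adjusted p = 0.805) that became 1.10 and passed under the scaling on shared entries. miR-181d-5p fell from 3845, 4224 and 4703 RPM in mESC to 923, 682 and 822 RPM in mCtx, by 2.40 on the log2 scale (limma adjusted p = 1.07e-07). Over the family 8 of 10 tested entries were higher and 1 lower, and 6 were higher with the 27.13 RPM floor.

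Every tested entry of the neuronal list was higher in mCtx, 28 of 28, with a median difference of 5.67 against -0.45 over all entries, and 24 passed with the floor. The list holds miRNAs known as enriched in neurons, and several of its entries are copies of 1 mature sequence at several loci, which share their reads. miR-9-5p, which acts in neurogenesis, summed over 3 loci to 58693, 72241 and 64602 RPM in mCtx and 535, 730 and 545 RPM in mESC. miR-128-3p, made from introns of R3hdm1 and Arpp21, was at 41111, 31809 and 21662 RPM against 521, 632 and 667 RPM. miR-124-3p, the textbook neuronal miRNA, was lower than these in mCtx, at 4119, 4599 and 2687 RPM, against 104, 109 and 90.5 RPM in mESC. None of the 3 overlapped between groups, and the differences were 6.76 ± 1.14, 5.66 ± 0.41 and 5.19 ± 0.29 (SE, limma adjusted p of 4.25e-05, 2.3e-10 and 1.94e-12). miR-132-3p, a miRNA induced by neuronal activity, was at 1437, 1322 and 1778 RPM in mCtx and 33.0, 70.5 and 64.9 RPM in mESC. miR-9-3p, the other arm, summed to 2202, 2083 and 1080 RPM in mCtx and was listed at 0 in mESC. miR-137-3p was at 227, 314 and 260 RPM in mCtx and was listed at 0 in mESC. The neuronal list summed to 1385 to 1706 RPM in mESC, and 11 of its 28 tested entries were above 0 in all 6 libraries.

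let-7, the family whose precursor LIN28 blocks in stem cells, was higher in mCtx in 15 of 18 tested entries and lower in none, with a median difference of 5.22. With the 27.13 RPM floor 13 of the 15 calls held. The family summed to 87900 to 107756 RPM in mCtx and 1751 to 2749 RPM in mESC. let-7f-5p led it, at 46623, 35609 and 31193 RPM in mCtx against 1170, 819 and 1267 RPM in mESC, a difference of 5.13 ± 1.23 (SE, limma adjusted p = 0.00148). let-7i-5p, made from 1 locus on chromosome 10, was at 21738, 18100 and 21463 RPM against 191, 106 and 199 RPM, with a difference of 6.99 ± 0.25 (SE, limma adjusted p = 1.23e-15). The 3 entries that were not called were all minor arms: let-7d-3p was listed at 0 in all 6 libraries, and let-7a-1-3p and let-7c-2-3p reached at most 11.2 and 9.29 RPM.

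The miR-10, miR-99, miR-100 and miR-125 family, partly transcribed with let-7, split by member. Its 8 higher entries of 12 tested were of miR-99, miR-100 and miR-125b, and the 2 lower ones were miR-10a-5p and miR-10b-5p, which are made from the Hox clusters. miR-125b-5p summed over 2 loci to 29947, 28336 and 13572 RPM in mCtx and to 105, 0 and 0 RPM in mESC. miR-99a-5p was at 2822, 1891 and 1319 RPM in mCtx and listed at 0 in mESC. mCtx replicate 3 was the lowest of its group for both, and for miR-100-5p, at 1203, 554 and 101 RPM, the range within mCtx was wider still. miR-10b-5p was listed at 0 in mCtx and at 149, 152 and 237 RPM in mESC. miR-125a-5p, at 11642, 9435 and 4749 RPM against 1828, 912 and 862 RPM, did not overlap but did not pass (difference 2.83 ± 1.64, SE, limma adjusted p = 0.16). It passed when only the 6 libraries were fitted (limma adjusted p = 0.00341).

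**Figure D3:**
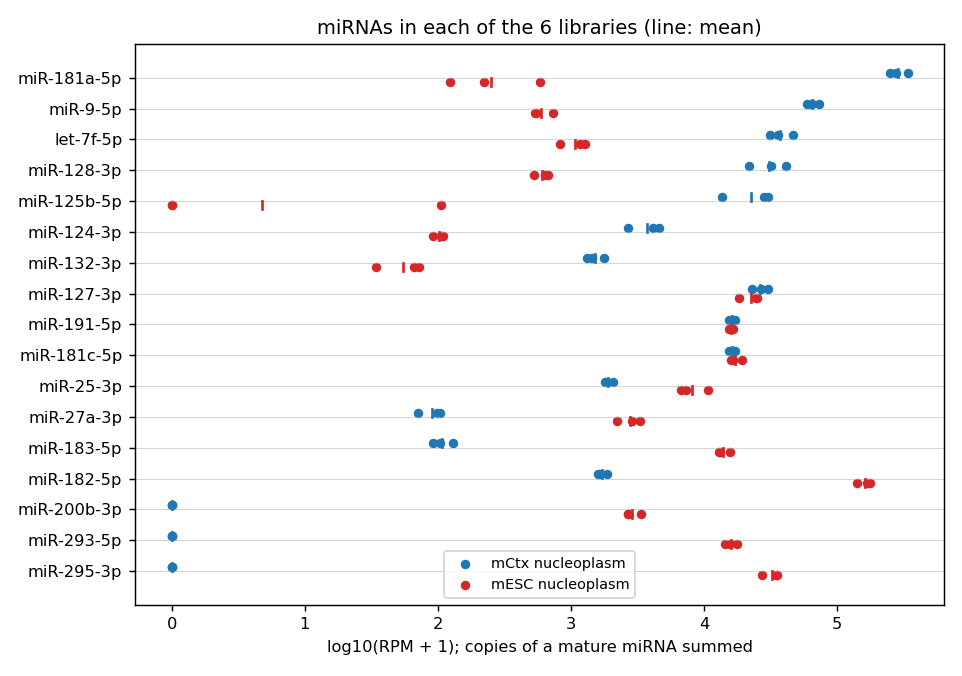
Level of 17 miRNAs in each nucleoplasm library as log10(RPM + 1), with copies of a mature sequence summed, mCtx in blue and mESC in red, and the mean of the logs as a line. miR-181a-5p to miR-132-3p have all mCtx libraries on the right, miR-127-3p, miR-191-5p and miR-181c-5p overlap, and miR-200b-3p, miR-293-5p and miR-295-3p are listed at 0 in mCtx.

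On the mESC side, the highest miRNA was miR-182-5p, of the cluster with miR-183 and miR-96 that is best known from sensory organs. It stood at 176308, 141134 and 166933 RPM in mESC and 1855, 1586 and 1661 RPM in mCtx, and thus fell by 6.56 on the log2 scale (SE 0.85, limma adjusted p = 1.63e-06). miR-183-5p stood at 15729, 12960 and 13184 RPM in mESC and 91.0, 102 and 129 RPM in mCtx and fell by 7.02 (SE 0.26, limma adjusted p = 1.89e-15). miR-96-5p was at 1538, 1424 and 871 RPM in mESC and listed at 0 in mCtx. All 4 tested entries of the cluster were lower, also with the floor and under the scaling on shared entries. miR-5099, of which no role is given here, also fell, from 2219, 2171 and 1837 RPM in mESC to 68.8, 72.7 and 43.2 RPM in mCtx.

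The miR-290 to miR-295 cluster on chromosome 7, which promotes the fast cell cycle of stem cells, was listed at 0 for every entry in all 3 mCtx libraries and summed to 72932 to 87703 RPM in mESC. Of its 14 tested entries 13 were called lower, and the hairpin entry mir-291a, listed in 1 mESC library, was not. miR-295-3p led at 35511, 27293 and 34408 RPM in mESC, followed by miR-293-5p at 15539, 14367 and 17602 RPM. miR-293-3p was listed at 0 in mESC replicate 1 and at 12423 and 12537 RPM in the others, so its groups touch at 0, and its call was lost when only the 6 libraries were fitted (limma adjusted p = 0.11). Hairpin and arms of mir-293 summed to 25336, 26790 and 30138.5 RPM in mESC, a difference of -14.74 (limma adjusted p = 1.75e-22). In mESC replicate 1 this sum exceeded miR-293-5p, so reads were listed under the hairpin where the 3p arm was at 0. The other pluripotency cluster, miR-302 to miR-367, was scarcely read in mESC nucleoplasm: miR-302a-3p was at 18.8, 32.6 and 0 RPM and miR-302d-3p at 31.4, 65.1 and 0 RPM. miR-302a-3p was listed at 0 in mCtx and its call (limma adjusted p = 0.0236) was lost with the floor and without any single library other than mESC replicate 3 (-3.13 to -2.15).

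The miR-200 family, known as a keeper of the epithelial state, was lower in mCtx in 5 of 6 tested entries and listed at 0 in all mCtx libraries. miR-200b-3p led it in mESC, at 2665, 2664 and 3332 RPM. The miR-17/92 cluster and its paralogs, known for driving proliferation, were lower in 17 of 24 tested entries, with a median difference of -2.35. miR-92a-3p, summed over its loci on chromosomes 14 and X, was at 1270, 948 and 839 RPM in mCtx and 26258, 20729 and 19303 RPM in mESC, a difference of -4.45 ± 0.37 (SE, limma adjusted p = 2.25e-09). miR-363-3p, of the paralog cluster on chromosome X, was at 16.0, 0 and 13.4 RPM against 2979, 4075 and 2416 RPM. miR-17-5p differed less, at 702, 802 and 597 RPM against 1422, 1601 and 1310 RPM (difference -1.05, limma adjusted p = 0.00301), and its call was lost under the scaling on shared entries. The 2 entries called higher, miR-20a-3p and miR-93-3p, were minor arms of at most 10.1 RPM, under the lowest listed values of mESC.

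Other families were mixed or near equal. In the miR-23, miR-24 and miR-27 clusters 6 of 9 tested entries were lower, led by miR-27a-3p at 98.0, 103 and 69.2 RPM in mCtx and 2214, 2856 and 3319 RPM in mESC (difference -4.94, limma adjusted p = 4.12e-10). In the miR-30 family 2 of 10 were higher and none lower: miR-30a-5p by 1.12 and miR-30d-5p by 2.78 (limma adjusted p of 0.000282 and 1.01e-12). Over all 851 entries 20.9% were higher and 31.3% lower, so the miR-30 count of higher entries was near the share over all. miR-26a-5p, made from introns of Ctdsp2 and Ctdspl, was higher by 1.82 (limma adjusted p = 0.000228), at 55958, 55041 and 40351 RPM against 18400, 12747 and 12056 RPM. Its relative miR-26b-5p was lower by 0.89 (limma adjusted p = 0.0223), a direction that turned to 0.29 under the scaling on shared entries, and the call was lost without replicate 1 of mCtx (-0.81) or of mESC (-0.78). miR-22-3p, the second miRNA of mESC, was at 32571, 36259 and 30542 RPM in mCtx and 63390, 57673 and 60078 RPM in mESC, and its difference of -0.87 (limma adjusted p = 0.0063) turned to 0.31 under that scaling. The miR-15/16 family had 2 of 10 entries lower and none higher, and 4 higher and none lower under that scaling. miR-191-5p was near equal, at 15350, 16104 and 16891 RPM against 15794, 15380 and 16540 RPM, and was called higher, by 1.20, under that scaling.

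The miRNAs of the imprinted Dlk1-Dio3 domain on chromosome 12, one of the largest miRNA clusters of the mouse, were read at similar totals, 62147 to 71644 RPM in mCtx and 72150 to 106477 RPM in mESC. Of 60 tested entries 9 were higher and 18 lower, with a median of -0.32, and the balance turned to 16 higher and 5 lower under the scaling on shared entries. Over all 851 entries, without that scaling, 20.9% were higher and 31.3% lower. With the 27.13 RPM floor 6 of the 60 were higher and 27 lower. miR-127-3p, the most abundant, overlapped between groups at 30252, 22756 and 26932 RPM in mCtx and 18177, 25014 and 24590 RPM in mESC (difference 0.24 ± 1.42, SE, limma adjusted p = 0.981). miR-410-3p overlapped as well. miR-541-5p was at 3670, 3471 and 5591 RPM against 15844, 22896 and 21050 RPM, without overlap, and did not pass (difference -2.25 ± 1.47, SE, limma adjusted p = 0.215), but passed when only the 6 libraries were fitted (limma adjusted p = 0.000611). miR-487b-3p, named after its values were seen, went the other way, at 1144, 1148 and 924 RPM against 104, 144 and 112 RPM (difference 3.16, limma adjusted p = 0.0236). Members of the 1 domain thus differed in both directions.

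**Figure D4:**
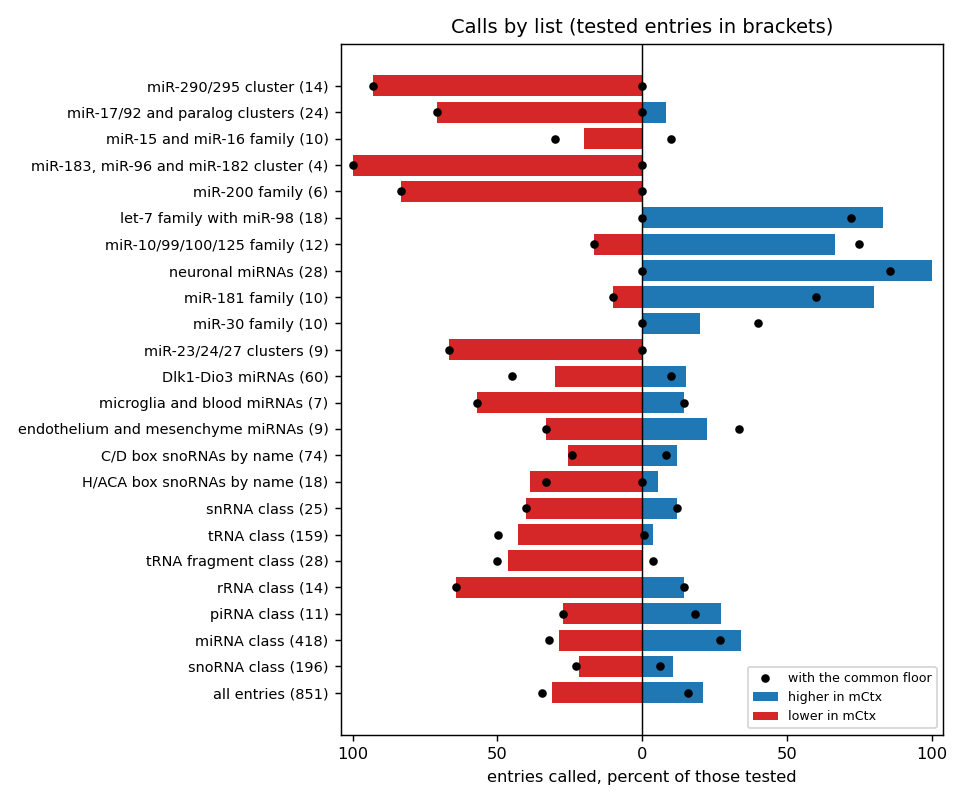
Percent of the tested entries of each list (number in brackets) called higher in mCtx (blue, to the right) or lower (red, to the left) by limma, with black dots for the calls with the 27.13 RPM floor. The neuronal, let-7 and miR-181 lists extend to the right, the stem cell cluster (miR-290 to miR-295), miR-183 cluster and miR-200 lists to the left, and the last bar gives all 851 entries, 20.9% higher and 31.3% lower.

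Which form of a miRNA was listed also differed. miR-21a-5p, a widely expressed miRNA made within Vmp1, was at 2473, 3176 and 3133 RPM in mCtx and listed at 0 in mESC, while the entry of its hairpin, mir-21a, was at 0 in mCtx and at 14103, 13404 and 12669 RPM in mESC. Both were called, in opposite directions, but the sum of hairpin and arms was 2927 ± 394 RPM in mCtx and 13450 ± 759 RPM in mESC and did not pass (difference -2.21 ± 1.77, SE, limma adjusted p = 0.318). The cause was not tested, and the rule that assigned reads to hairpin or arm is not given in the sources used here. The listed form could also differ between replicates of 1 group, as for mir-293 in mESC. Both arms were above 0 in all 6 libraries for 21 miRNAs, and for 13 the log2 ratio of the 5p to the 3p arm did not overlap between groups, with the 5p share higher in mCtx for 4 and lower for 9. The pair with the largest shifts, named after their values were seen, were mir-369, with a ratio of 3.25 ± 0.83 in mCtx and -0.04 ± 0.60 in mESC, and mir-431, with 0.45 ± 0.32 and 3.72 ± 0.56 (SD, n = 3).

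The labelled cell types were checked on these lists. The mESC markers of the miR-290 to miR-295 cluster were at 0 in mCtx and high as a sum in mESC. Those of the miR-302 to miR-367 cluster were at 0 in mCtx and summed to only 0 to 97.67 RPM in mESC. The neuronal markers miR-9, miR-124, miR-128 and miR-132 were higher in mCtx in every library. The glial list, miR-219a and miR-338, was at 0 for all 3 entries in mESC and summed to 53.7 to 101 RPM in mCtx, with miR-338-3p at 74.1, 75.1 and 45.4 RPM. Of the 7 tested microglia and blood entries 1 was higher and 4 lower, and the list summed to 378 to 525 RPM in mCtx and 2833 to 3340 RPM in mESC. In mCtx miR-150-5p, miR-142a-3p and miR-155-5p were at 0, miR-142a-5p was at 12.6, 15.5 and 10.1 RPM, and miR-486a-5p was at 482, 418 and 352 RPM. In mESC miR-150-5p was at 1760, 1742 and 2105 RPM and miR-142a-5p at 1249, 1359 and 574 RPM. Of the 9 tested endothelium and mesenchyme entries 2 were higher and 3 lower, near the 20.9% and 31.3% over all 851 entries. With the 27.13 RPM floor 3 were higher and 3 lower, but 0 of the first 2 higher calls held. Under the scaling on shared entries 6 were higher. Sums were 3602 to 4158 RPM in mCtx and 5167 to 7454 RPM in mESC. miR-143-3p made up most of these sums and overlapped between groups, with a difference of -0.39 that became 0.79 and passed under that scaling. The part of other cells in the differences was not tested.

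The entries of tRNAs, the carriers of amino acids to the ribosome, were mostly lower or not called. Of 159 tested, 68 were lower in mCtx and 6 higher, with a median difference of -2.27 against -0.45 over all entries. With the floor 79 were lower and 1 higher, and under the scaling on shared entries 51 and 8. Copies of a tRNA gene share reads, so entries were also summed by anticodon. Of the 15 anticodons above 0 in all 6 libraries 14 had a lower mean in mCtx, 12 of them without overlap, and the median log2 ratio of means was -2.0. Lack of overlap was common, as 251 of the 306 single entries above 0 in all 6 libraries did not overlap. tRNA-Lys-CTT, the most abundant, summed to 5582, 5539 and 4810 RPM in mCtx and 34509, 58001 and 38730 RPM in mESC, a log2 ratio of -3.04. tRNA-His-GTG was at 1211, 1407 and 1666 RPM against 11881, 14262 and 10343 RPM, and tRNA-Glu-CTC at 419, 247 and 509 RPM against 5415, 5364 and 3554 RPM. tRNA-Tyr-GTA alone had a higher mean in mCtx, and its groups overlapped at 61.4 to 89.1 RPM and 50.2 to 84.6 RPM. The entry tRNA-Val-CAC-4-1, named after its values were seen, was the 1 called higher also with the floor, at 66.2, 54.5 and 45.0 RPM in mCtx and 0 in mESC. The values do not tell whole tRNAs from shorter pieces. Entries annotated as tRNA fragments were lower in 13 of 28 and higher in none, with a median of -2.57, and tRNA-Thr-AGT-6-1-tRF5 was at 21.9, 23.2 and 21.7 RPM against 339, 650 and 943 RPM.

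Whether this tRNA difference was the same in the cytoplasm was tested as an interaction, the nucleoplasm difference minus the cytoplasm difference. Over all 851 entries 54 were higher by this test (6.35%) and 112 lower (13.2%), but 112 higher and 54 lower under the scaling on shared entries. A common floor was set at 42.45 RPM, the highest of the lowest listed values of the 12 libraries compared. With it 21 of the 54 higher and 68 of the 112 lower calls held. Of the tRNA entries 13 were higher and 57 lower, 4 and 39 of them also with that floor, so tRNA entries made up 57 of the 112. Of the 15 anticodons above 0 in all 6 nucleoplasm libraries, 12 were also above 0 in all cytoplasm libraries. In the cytoplasm their median log2 ratio was -0.63, with 9 lower. tRNA-Gly-GCC-1-1, identical in value to its copies 1-2 and 1-3, was at 32.1, 37.0 and 72.0 RPM in mCtx nucleoplasm and 615, 1565 and 1114 RPM in mESC nucleoplasm, and at 478, 288 and 394 RPM and 1022, 803 and 489 RPM in their cytoplasm. The interaction was -3.54 ± 0.48 (SE, limma adjusted p = 1.05e-05). tRNA-Val-AAC-1-2 went opposite ways, lower in mCtx nucleoplasm (729 ± 56.5 against 1675 ± 283 RPM) and higher in mCtx cytoplasm (5657 ± 1107 against 2159 ± 1219 RPM, SD, n = 3), with an interaction of -2.71 ± 0.60 (SE, limma adjusted p = 0.00224).

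**Figure D5:**
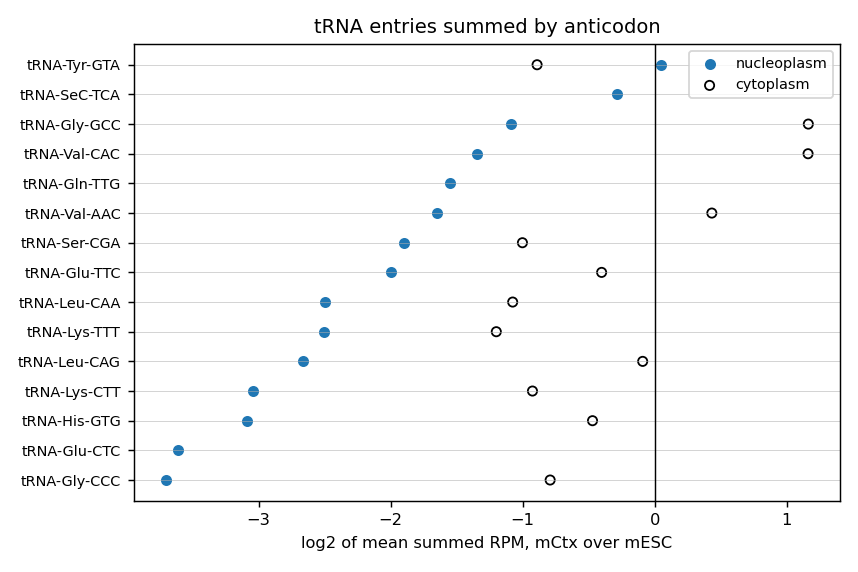
Log2 ratio of the mean summed RPM in mCtx over mESC for the 15 anticodons above 0 in all 6 nucleoplasm libraries (filled), and in cytoplasm for those above 0 in all 6 cytoplasm libraries (open). In nucleoplasm 14 points lie left of 0, and Gly-GCC, Val-CAC and Val-AAC lie left of 0 in nucleoplasm and right of 0 in cytoplasm.

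Against chromatin the interaction called 110 entries higher (12.9%) and 171 lower (20.1%). With a common floor set in the same way, at 54.80 RPM, 55 of the 110 and 112 of the 171 held. Here miRNAs made up most of the lower calls, 130 of 418 tested (91 held with that floor), against 42 higher (7 held). snoRNAs had 45 of 196 higher (33 held) and 19 lower (13 held). Of the 159 tRNA entries 19 were higher (12 held) and 11 lower (3 held), with a median interaction of 0. Among the lower calls above 0 in all 12 libraries, miR-101a-3p had the largest interaction, -2.58 ± 0.39 (SE, limma adjusted p = 2.58e-05). It was near equal in nucleoplasm, at 2084, 2326 and 2217 RPM in mCtx and 2714, 1971 and 2085 RPM in mESC. On chromatin it was at 2754 ± 692 RPM against 469 ± 131.8 RPM (SD, n = 3). The next, miR-101b-3p, had another form, with differences of -1.87 in nucleoplasm and 0.49 on chromatin. The miRNA share of listed RPM on chromatin was 74.4% in mCtx and 27.6% in mESC, and its part in these calls was not tested.

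The snoRNA entries were lower in mCtx in 43 of 196 and higher in 21, with a median of 0, and in 32 and 27 under the scaling on shared entries. Without that scaling both were smaller shares than over all 851 entries, of which 31.3% were lower and 20.9% higher. With the 27.13 RPM floor 45 snoRNA entries were lower and 12 higher. Of the 74 tested C/D box snoRNAs with names 19 were lower and 9 higher, or 18 and 6 with the floor. Of the 18 H/ACA box snoRNAs 7 were lower and 1 higher, or 6 and 0 with the floor. Snord69 and Snord64 are printed because they moved in opposite directions, with the box C motif TGATGA and the box D motif CTGA nearest the 3′ end in capitals, from GENCODE release M21 transcripts of GRCm38. Snord69 lies within Gnl3, the gene of nucleostemin, at chr14:31014287-31014366 on the minus strand. Snord64 lies at chr7:59978808-59978874 on the minus strand, within the transcript Gm38393, in the imprinted region of Snrpn, and was named after its values were seen.
Snord69: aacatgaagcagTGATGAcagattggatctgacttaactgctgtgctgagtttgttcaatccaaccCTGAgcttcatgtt
Snord64: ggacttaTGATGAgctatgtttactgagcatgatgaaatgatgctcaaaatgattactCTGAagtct
Snord69 was at 468, 535 and 637 RPM in mCtx and 4024, 2957 and 2152 RPM in mESC and fell by 2.44 on the log2 scale (SE 0.27, limma adjusted p = 1.76e-07). Snord64 was at 521, 511 and 418 RPM in mCtx and 182, 67.8 and 29.5 RPM in mESC, a difference of 2.73 ± 0.91 (SE, limma adjusted p = 0.0158). Neither overlapped between groups, and both kept their direction under the scaling on shared entries.

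Other C/D box snoRNAs also differed among themselves. Snord52 was at 2065, 2188 and 1429 RPM in mCtx and 1580, 971 and 735 RPM in mESC, which overlap, and did not pass (difference 0.84, limma adjusted p = 0.641). Snord93, named after its values were seen, was at 101, 146 and 77.7 RPM against 2832, 1211 and 870 RPM (difference -3.77, limma adjusted p = 0.000959).

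Among the H/ACA snoRNAs, Snora16a, Snora44 and Snora52 were lower. Snora16a, at 0, 81.3 and 0 RPM against 1773, 660 and 549 RPM, lost its call under the scaling on shared entries (-6.72) and without mCtx replicate 1 or 3 or mESC replicate 1 or 2 (-7.83 to -6.57). Snora44, within Snhg12, was at 9.26, 0 and 0 RPM in mCtx and 351, 182 and 166 RPM in mESC (limma adjusted p = 5.4e-09). Snora23 was listed at 0 in mCtx and at 174, 84.1 and 90.5 RPM in mESC. snoRNAs of 1 host gene did not always share a direction: of 37 host genes with 2 or more tested snoRNA entries, 4 had calls in both directions. In Snhg5, Snord50a was at 89.9, 67.2 and 109 RPM in mCtx and 0 in mESC, and Snord50b at 101, 87.4 and 133 RPM against 865, 376 and 370 RPM. The entries Snord50a and Gm24463 had identical values, as did Snord50b and Gm26135, so which copy was read is uncertain, and the call of Snord50b was lost under the scaling on shared entries. Hosts were examined after the calls were seen.

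Of 25 tested snRNA entries 10 were lower and 3 higher, also with the floor. Under the scaling on shared entries 8 were lower and 3 higher. Without that scaling 31.3% of all 851 entries were lower and 20.9% higher. The 3 most abundant in mESC, the predicted genes Gm23143, Gm23287 and Gm25099, are neighbours on chromosome 4, at chr4:117202528-117202643, chr4:117210844-117210959 and chr4:117189942-117190057, with the same length of 116 nt. Gm23143 was at 0, 17.8 and 19.1 RPM in mCtx and 2222, 2276 and 1888 RPM in mESC, a difference of -8.20 ± 1.01 (SE, limma adjusted p = 8.66e-07), and the other pair was listed at 0 in mCtx. Rnu7, the U7 RNA of histone mRNA 3′ end formation, was at 34.5, 42.6 and 21.2 RPM against 271, 316 and 278 RPM. It differed by -3.15 (limma adjusted p = 0.0263), and this call was lost under the scaling on shared entries (-1.99) and without mCtx replicate 1 or 3 or mESC replicate 2 or 3 (-3.22 to -2.88). Rnu3a, a U3 RNA of rRNA processing, was at 83.5, 28.6 and 22.7 RPM against 568, 285 and 445 RPM (difference -3.42, limma adjusted p = 1.01e-07). Rnu12, the U12 RNA of the minor spliceosome, named after its values were seen, was higher, at 414, 388 and 267 RPM against 128.4, 126.2 and 134.8 RPM (difference 1.43, limma adjusted p = 9.5e-05).

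Of the 14 tested rRNA entries 9 were lower and 2 higher, and the libraries had been depleted of rRNA. The leading entry, a part of Rn18s-rs5 on chromosome 17, was at 0, 0 and 40.3 RPM in mCtx and 1916, 3752 and 10947 RPM in mESC, so mESC replicate 3 held most of it. Of 11 piRNA annotations, piRNAs being best known as germ line guides against transposons, 3 were higher and 3 lower. The shares over all 851 entries were 20.9% higher and 31.3% lower. mmu_piR_011982 was at 0, 0 and 12.1 RPM in mCtx and 2810, 2903 and 1995 RPM in mESC, and mmu_piR_005109 at 626, 624 and 293 RPM in mCtx and 0 in mESC. Groups did not overlap in either.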

How the data were processed

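Per the labels, RNA under 200 nt was selected and depleted of rRNA, and libraries of 120 to 160 bp were read as 100 bp single reads. The deposited values are RPM, that is, the authors divided reads to a total of 1000000, of which the listed entries hold 83.4% to 94.4% in the 6 libraries. The aligner, the build and the read assignment rule were not given in the sources used here, but 285 of 288 Ensembl entries had the coordinates of GENCODE release M21 (GRCm38). Low values of mature miRNAs were whole reads (within 0.02 reads) in 78.6% to 84.4% of cases, and of entries at 2 loci 46.6% were whole and 76.7% multiples of 1 part in 2, so copies share reads and no count test was run.

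Entries were kept where 3 or more of the 27 libraries reached 1 RPM. log2(RPM + 1) went into limma (version 3.58.1, R version 4.3.3), with the trend and robust options. A mean was fitted to each of the 9 groups, and entries were called at a Benjamini-Hochberg adjusted p under 0.05. The fit was tested on simulated data, where the differing lowest listed values gave more false calls among unchanged entries than a common floor did, so counts with the common floor are given beside the others. Class shares were compared by exact permutation. Python 3.11.15, pandas 2.3.3 and matplotlib 3.10.9 were used.

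Named entries were the 10 largest called differences each way without overlap and above 0 in all 6 libraries, the 6 highest each way with the other group at 0, the 4 highest of each list, the 6 highest of each group and the 4 largest interactions each way above 0 in all 12 libraries. Others are marked as named after their values were seen, or are given with a list or check. Members and lists were chosen with earlier results of these data known. Replicate numbers were not treated as pairs, since same-numbered libraries had correlations of 0.066, -0.071 and 0.119.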

Additional observations from a re-analysis of the deposited data

Results flagged for a closer look

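The difference between mCtx and mESC in nucleoplasm was tested against that in the other fractions, and these interactions passed. Against cytoplasm 54 entries were higher and 112 lower, and against chromatin 110 were higher and 171 lower (limma adjusted p under 0.05). With a common floor 21 and 68 of these held against cytoplasm, and 55 and 112 against chromatin. Against cytoplasm, Snord69 had an interaction of 1.31 and miR-337-5p of 1.18, both lower in mCtx in either fraction but by less in nucleoplasm (-2.44 and -1.67) than in cytoplasm (-3.75 and -2.85), while tRNA-Gly-GCC-1-1, 1-2 and 1-3 stood at -3.54 and tRNA-Val-AAC-1-2 at -2.71. The call of Snord69 was lost with a common floor, with a pseudocount of 10 RPM and without mESC nucleoplasm replicate 3 (0.84, 0.98 and 1.08), and that of miR-337-5p without nucleoplasm replicate 1 of mESC or 1 or 3 of mCtx, or cytoplasm replicate 2 or 3 of mESC or 2 of mCtx (0.96 to 1.16). Against chromatin, tRNA-Gly-CCC-4-1 had an interaction of 2.58, tRNA-Gly-GCC-2-3 and 2-7 of 1.89 and 2-4 of 1.88. The lower ones were miR-101a-3p at -2.58, miR-101b-3p at -2.36, miR-301a-3p at -2.30 and miR-136-3p at -2.25. The differences of these 4 miRNAs lay between -1.87 and 0.32 in nucleoplasm and between 0.49 and 2.63 in chromatin.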

How the results depend on the processing

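A p-value here rests on groups of 3 libraries. Low entries are limited by the lowest listed values, since mESC libraries list nothing under 15.69 to 27.13 RPM. Refitting only the entries above 0 in every library compared left 306, 208 and 193 entries, with p-values adjusted over these alone: 44 higher and 117 lower between the cell types, 1 and 41 for the interaction with cytoplasm, 11 and 53 for that with chromatin. With miRNA entries alone, scaled to miRNA reads, 136 were higher and 134 lower between the cell types, 10 higher and 22 lower against cytoplasm, and 47 higher and 82 lower against chromatin. In these 2 settings fewer entries were tested. Scaling on shared entries gave 112 higher and 54 lower against cytoplasm. The cause was not tested. As shares of 1000000 the miRNA difference was 20.98 points in place of 15.13 and the snRNA difference -0.6127 in place of -0.73. Directions reversed for miR-21a-5p with hairpin and arm summed (-2.21), for miR-26b-5p (0.29) and miR-22-3p (0.31) under the scaling on shared entries. miR-219a-1-3p lost its difference with the common floor (0.0), which lies above its values. With the replicate block the counts were 152 higher and 278 lower between the cell types and 34 higher and 93 lower against cytoplasm, where 54 and 112 were called without it. Without 1 library at a time, 163 to 189 were higher and 240 to 262 lower. Besides calls given above with their values, single libraries ended those of miR-15b-5p (without mESC replicate 1 or mCtx replicate 3, -1.10 and -1.09), Gm24407 (without any but mESC replicate 1, 4.27 to 5.99) and n-R5-8s1 (without mESC replicate 2 or any mCtx replicate, 1.70 to 4.35).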
